A study of Mus musculus with 8 samples.

Results

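The 4 skin arrays that carried *Cd109* signal were compared, 2 taken 24 h after application of 7,12-dimethylbenz[a]anthracene (DMBA) and 2 taken 24 h after acetone, its solvent, alone, and genes of neutrophil recruitment, of neutrophils themselves and of stressed epidermis were among the largest rises. The 4 arrays were chosen by 1 measured value among the 8 of the series, in that the *Cd109* probe read above 0 on a log2 scale on which 0 is the 75th percentile of the array. Both arrays of DMBA-treated wild-type (*CD109+/+*) female mice met this condition, as did replicate 1 of untreated wild-type skin and replicate 1 of the untreated skin labelled *CD109*-deficient (*CD109-/-*). The other 4 arrays (both DMBA-treated *CD109-/-* arrays, and replicate 2 of each untreated genotype) were below 0. All mice were on the FVB/N background, a strain that readily forms skin carcinomas, the deficient allele having been backcrossed onto it. The RNA came from whole skin, so epidermis, hair follicles, dermis, fat and the muscle beneath were measured together. The acetone-treated controls are titled DMBA-untreated in the labels and are called untreated below. The ages of the array mice, and whether each array was a separate mouse, are not given in the sources used here, so p-values measure only the spread between these arrays, which may be technical.

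The log2 *Cd109* signal was 1.1 and 1.68 on the DMBA-treated arrays and 2.3 and 1.9 on the untreated arrays of wild-type and deficient label. Just inside the threshold lay the first of these, at 1.1, and just outside it the wild-type untreated replicate 2, at -6.27, a reading not well above background. 1 array labelled deficient thus carried as much *Cd109* signal as wild-type skin, and 1 array labelled wild-type carried none above background, so the label of each goes against its *Cd109* reading and the array is named below by its label only. *Cd109* chose the arrays and was not tested. The same 4 arrays shared low hair signal: the mean linear signal of 13 hair shaft keratins ran from -2.17 to -1.73 in log2 on them and from 2.92 to 6.95 on the other 4, a separation that the choice of arrays brings along. Epidermal *Krt5* (8.0 to 8.43) and dermal *Col3a1* (7.5 to 7.91) were well above background on all 4. On the single slide used, the DMBA-treated arrays lay in 1 row and the untreated arrays in the other, so a difference between slide rows and the effect of DMBA cannot be told apart. Signal at the 75th percentile ran from 335.3 to 523.7 intensity units over the 8 arrays, between 63.6% and 67.0% of the spots were well above background, and no spot was saturated; the small number of arrays limits the precision of every value below.

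DMBA is a polycyclic aromatic hydrocarbon that skin cells convert, by cytochrome P450 enzymes under the aryl hydrocarbon receptor, into a reactive epoxide that binds DNA, and it serves as the initiating agent of chemical skin carcinogenesis. CD109 is a glycosylphosphatidylinositol-anchored thioester protein of keratinocytes that binds TGF-beta receptors. Injured or irritated epidermis releases interleukins and CXC chemokines. These draw neutrophils from the blood through the receptors Cxcr1 and Cxcr2. The epidermis itself then switches to the stress keratins and to antimicrobial and protease-inhibitor genes.

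DMBA-treated and untreated arrays were compared gene by gene with limma, a linear model whose spread was estimated over all 8 arrays, and a change was called at a Benjamini-Hochberg adjusted p under 0.05. Of 37139 probes tested, 897 (2.42%) were called higher and 423 (1.14%) lower after DMBA, and 8263 had an unadjusted p under 0.05. With 1 probe for each gene, 539 of 16846 genes (3.2%) were higher and 241 (1.43%) lower. The count of calls in each gene list below is to be read against these 2 shares. The median log2 change over all genes was 0.00, and 8337 genes had a positive one. A change of at least 2-fold was found for 389 of the genes called higher and 163 of those called lower. The 2 groups overlapped for none of the 780 called genes, so leaving out any 1 of the 8 arrays could not reverse a direction. None of the 780 was called in every fit with 1 array left out. Without the untreated array of deficient label, 49 probes were called higher and 22 lower, and 34 of the 780 genes passed. Without the untreated wild-type array these counts were 91 and 36, without the first DMBA-treated array 0 and 0 (5246 probes at an unadjusted p under 0.05), and without the second 28 and 13. A fit of the 4 arrays alone called 52 higher and 18 lower. The calls below therefore rest on all 4 arrays and on the spread borrowed from the other 4.

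**Figure D1:**
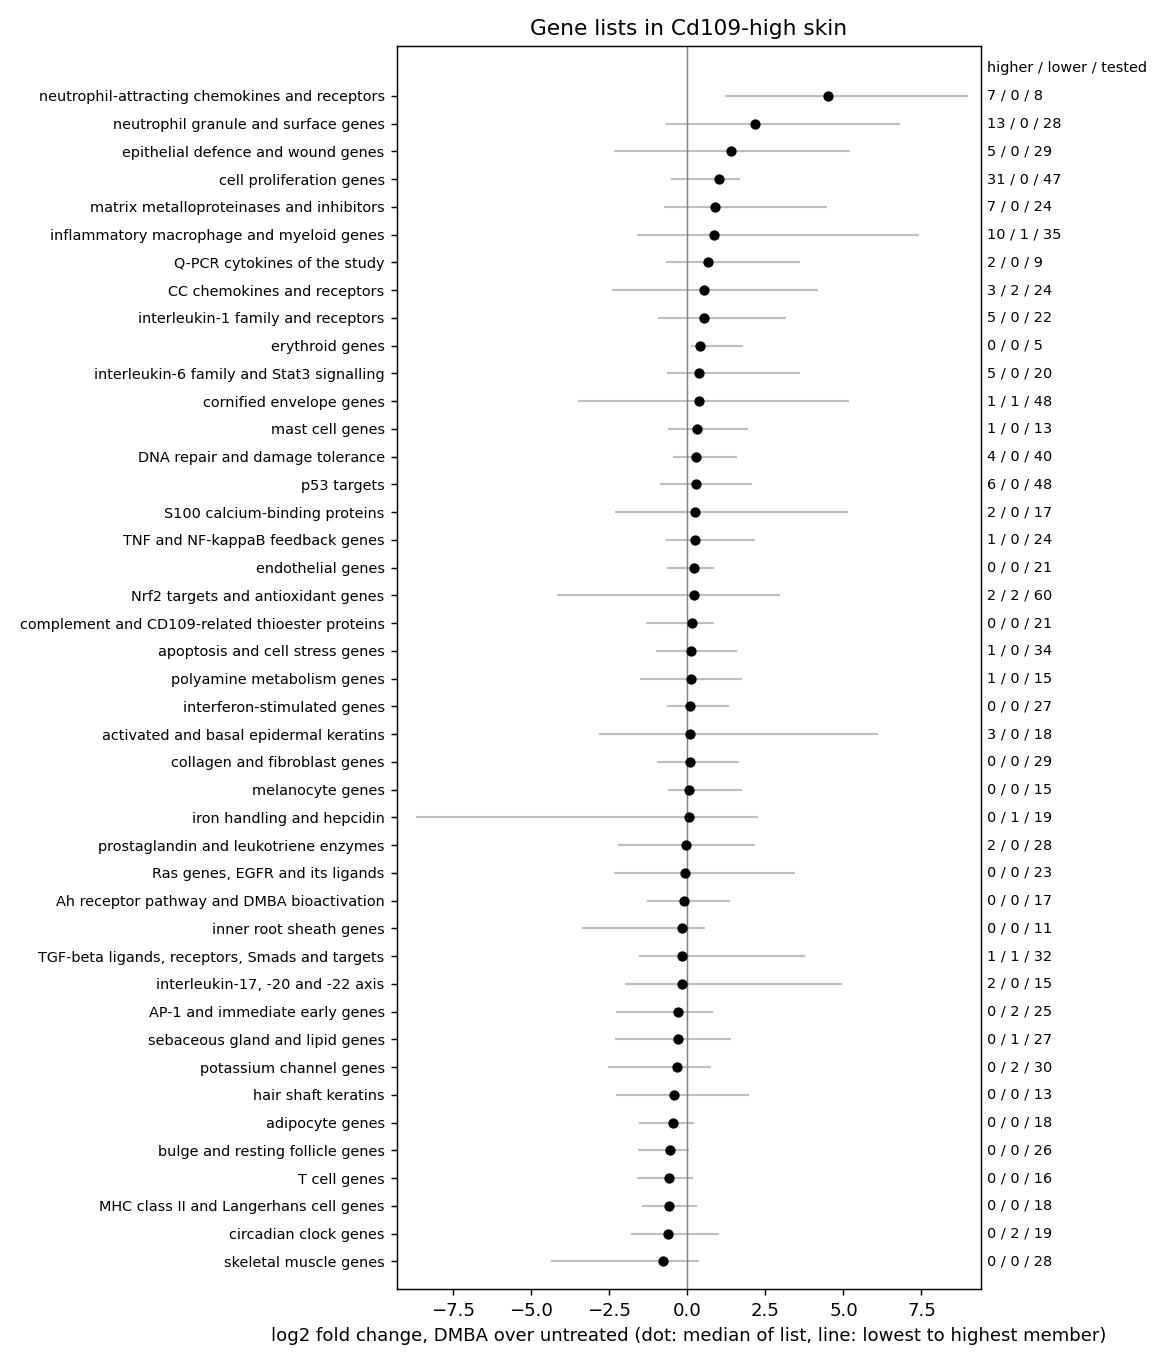
Log2 fold change (DMBA over untreated, horizontal axis) for each of the 43 gene lists, with a dot at the median of the tested members, a line from the lowest to the highest member, and at the right the number called higher, called lower and tested. The neutrophil-attracting chemokines and receptors lay farthest to the right (median 4.49), the neutrophil genes next (2.17), and the proliferation genes spanned a narrow range around 1.02.

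Of the 43 lists, that of neutrophil-attracting chemokines had the highest median. 7 of the 8 tested members (CXC chemokines that bind Cxcr2, *Pf4*, and the receptors) were called higher and none lower, with a median log2 change of 4.49, or 3.67 with the 4 members that were dim in untreated skin at their lower bound. *Cxcl5*, a chemokine made largely by epithelial cells, read 2.24 and 1.89 after DMBA and -6.92 and -6.9 in untreated skin, where it was not well above background on either array. The 2 groups lay far apart, and *Cxcl5* was at least 214-fold higher after DMBA (adjusted p = 0.00954), a bound set against the dimmest signal that counts as above background. *Cxcl2*, released early by macrophages and keratinocytes, went from -6.44 and -5.54 to 0.32 and -0.6 (at least 43.9-fold, adjusted p = 0.0192). Its neighbour *Cxcl3* went from -7.59 and -7.68 to -1.63 and -2.26 (at least 13.3-fold, adjusted p = 0.0122). Neither was above background in untreated skin, whereas *Cxcl1*, the mouse KC chemokine, was. *Cxcl1* was -2.67 and -2.72 in untreated and -0.51 and -0.91 in treated skin, a 3.96-fold rise (log2 fold change 1.99 ± 0.24 SE, adjusted p = 0.0202). *Ppbp*, the platelet chemokine precursor, rose from -2.7 and -3.04 to 0.36 and 1.13 (log2 fold change 3.61 ± 0.32 SE, adjusted p = 0.0135). *Pf4*, another platelet chemokine, did not pass, with 7.22 and 7.16 after DMBA and 5.64 and 6.33 without (adjusted p = 0.16). Of the receptors, *Cxcr2* was 0.92 and 0.55 after DMBA against -3.38 and -3.93 (log2 fold change 4.39 ± 0.25 SE, adjusted p = 0.00703), and *Cxcr1*, -2.41 and -2.78 after DMBA, was not above background in untreated skin (at least 8.48-fold, adjusted p = 0.0205). Without the untreated array of deficient label 1 of the 7 calls was kept, that of *Cxcr2* (adjusted p = 0.0314), and in the 4-array fit 3.

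The promoters of the neighbouring chemokine genes *Cxcl1*, *Cxcl2* and *Cxcl3* and of *Il6*, a cytokine gene that moved with them, are shown because all 4 carry the same 10-letter NF-kappaB-type motif close to the start of transcription. Each line gives the 250 bases before the RefSeq start on GRCm38.p6 in the direction of the gene, with the motif (GGGA, any 2 bases, TTCC, read on both strands) in capitals. They lie at chr5:90890995-90891244 (*Cxcl1*), chr5:90903649-90903898 (*Cxcl2*), chr5:90785851-90786100 (*Cxcl3*) and chr5:30012864-30013113 (*Il6*), all on the plus strand.
Cxcl1: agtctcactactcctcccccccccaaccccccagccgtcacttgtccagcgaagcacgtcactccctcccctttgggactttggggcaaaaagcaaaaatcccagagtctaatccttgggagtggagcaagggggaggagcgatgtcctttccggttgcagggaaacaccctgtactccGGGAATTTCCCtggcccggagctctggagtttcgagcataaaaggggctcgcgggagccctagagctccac
Cxcl2: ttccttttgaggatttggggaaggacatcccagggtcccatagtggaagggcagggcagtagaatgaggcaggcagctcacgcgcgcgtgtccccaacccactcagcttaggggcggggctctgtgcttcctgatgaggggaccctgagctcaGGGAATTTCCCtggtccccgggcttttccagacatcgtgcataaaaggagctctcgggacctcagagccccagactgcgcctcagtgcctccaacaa
Cxcl3: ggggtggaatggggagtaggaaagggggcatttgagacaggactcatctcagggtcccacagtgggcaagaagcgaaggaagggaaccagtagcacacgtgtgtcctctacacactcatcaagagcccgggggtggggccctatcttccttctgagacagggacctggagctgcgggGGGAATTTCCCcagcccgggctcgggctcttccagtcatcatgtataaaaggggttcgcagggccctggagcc
Il6: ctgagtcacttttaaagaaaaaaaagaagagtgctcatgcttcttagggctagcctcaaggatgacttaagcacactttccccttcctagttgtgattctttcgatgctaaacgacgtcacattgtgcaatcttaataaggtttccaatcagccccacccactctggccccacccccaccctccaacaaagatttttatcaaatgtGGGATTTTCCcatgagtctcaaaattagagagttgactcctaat
The motif began 71 bases before the start of *Cxcl1*, 97 before that of *Cxcl2*, 73 before that of *Cxcl3* and 44 before that of *Il6*. In the 3 chemokine genes the 11 capitals hold a second match on the opposite strand, shifted by 1 base, so the matches overlap. The 10 letters were found in 482 of 32851 promoter windows of 300 bases (1.47%), in 9 of 512 windows of genes called higher (1.76%) and in 2 of 247 of genes called lower (0.81%), so the motif was about as frequent in the higher genes as in all genes. Of the 6 chemokine and receptor genes called higher that have a window, these 3 held it. The match describes letters in a window and does not show that a factor bound there.

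Of 28 tested granule and surface genes of neutrophils, 13 were called higher and none lower (median log2 change 2.17), 5 of them also without the untreated array of deficient label. The highest member of this list was the stefin gene *Stfa2* (6.82), which is counted again in the stefin family below. *S100a9* and *S100a8*, the subunits of calprotectin made by neutrophils and by stressed keratinocytes, read 8.09 and 7.31 and 6.63 and 5.77 after DMBA and 2.5 and 2.59 and 1.16 and 2.54 in untreated skin. Their log2 changes were 5.16 (adjusted p = 0.0317) and 4.35 (adjusted p = 0.0496), the second close to the threshold. *Clec4d* and *Clec4e*, C-type lectin receptors of myeloid cells that sense fungi, mycobacteria and dead cells, changed by 4.68 and 4.77 (3.63 and 3.17 against -0.66 and -1.89, and 1.02 and 0.69 against -3.76 and -4.08). *Mmp8*, neutrophil collagenase, went from -5.77 and -5.15 to -0.82 and -1.18 (log2 fold change 4.46 ± 0.26 SE, adjusted p = 0.00714), above background on 1 of the 2 untreated arrays, and kept its call without the deficient-labelled array (adjusted p = 0.0253). *Retnlg*, a resistin-like neutrophil gene, changed by 3.69, and *Hdc*, which makes histamine in mast cells and neutrophils, by 1.94. *Prok2*, a chemoattractant peptide of myeloid cells, was not above background in untreated skin and was at least 9.14-fold higher after DMBA (adjusted p = 0.0122).

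Not all neutrophil genes were called. *Itgam*, the CD11b integrin chain, read 3.42 and 3.16 after DMBA and 4.13 and 3.82 without, *Csf3r*, the receptor for the neutrophil growth factor, changed by 0.08 (adjusted p = 0.848), and the azurophil granule genes *Elane* and *Mpo*, transcribed in bone marrow precursors rather than in mature cells, by -0.01 and -0.56. *Lcn2* (2.26, adjusted p = 0.0947) and *Ltf* (-5.16 and -5.11 against -6.66 and -7.76, the latter not above background, adjusted p = 0.204), secretory granule genes, did not pass. In bulk skin, more cells of a type and more RNA per cell cannot be told apart, and this holds for every cell type named here.

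**Figure D2:**
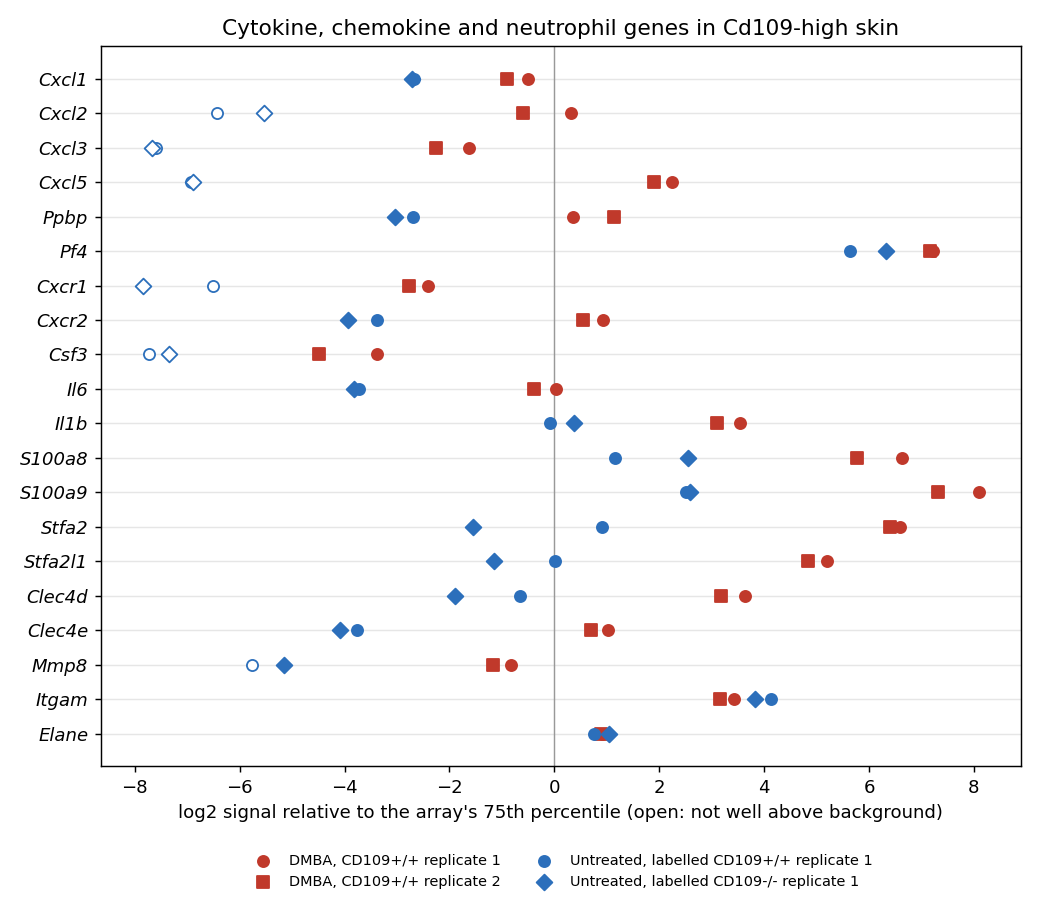
Log2 signal relative to the 75th percentile of each array (horizontal axis) of chemokine, receptor, cytokine and neutrophil genes, a marker for each of the 4 arrays, red after DMBA, blue without, and open where the probe was not well above background. The red markers lie to the right for Cxcl5 (1.89 and 2.24 against -6.92 and -6.90) and for every other gene drawn except Itgam and Elane.

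The stefin A genes, which encode small inhibitors of cysteine proteases expressed in neutrophils and stratified epithelia, formed a block among the largest changes. 9 of the 10 tested members of the cluster on chromosome 16 were called higher (median 4.72, range 0.64 to 7.17), a family described after its values were seen. *Cstdc4* went from -2.93 and -5.04 to 3.54 and 2.83, *Stfa2* from 0.9 and -1.56 to 6.59 and 6.4 and *Stfa2l1* from 0.01 and -1.15 to 5.2 and 4.84. The treated arrays were alike, and the 2 untreated arrays differed by more than 1 on the log2 scale for each. *Csta3* (6.04) and *Cstdc6* (5.19) were also among the 15 highest genes. So were *2610528A11Rik* (7.12) and *Gm5478* (6.11), which are not stefins. *Csta1*, the remaining stefin, read -2.3 and -2.18 against -2.38 and -3.39 (adjusted p = 0.342). The transcripts of these paralogs are so alike that probes may share targets, and the value of a single member is uncertain.

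Of the interleukin-1 family and its receptors, 5 of 22 tested members were called higher and none lower (median 0.53). *Il1b*, the alarm cytokine of myeloid cells, read 3.54 and 3.1 after DMBA and -0.09 and 0.38 in untreated skin (log2 fold change 3.17 ± 0.28 SE, adjusted p = 0.0135). The receptor chains *Il1rap* (1.19) and *Il1r1* (0.9) and the inflammasome sensor *Nlrp3* (1.18) rose less. *Il33*, an alarmin of keratinocytes, was 3.74 and 3.49 against 1.71 and 1.17 and lay at the threshold without passing (adjusted p = 0.0502). *Il1a*, the preformed epidermal form, showed no called change (-0.34, adjusted p = 0.782).

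In the interleukin-6 family and Stat3 list, 5 of 20 were called higher (median 0.36). *Il6* rose 12.2-fold, from -3.72 and -3.83 to 0.03 and -0.38 (adjusted p = 0.0135), and *Csf3*, the neutrophil growth factor G-CSF, was at least 3.35-fold higher, its untreated signal not being above background (adjusted p = 0.0172). *Osm* (1.4), a gp130 cytokine, and the Stat3-induced genes *Bcl3* (1.33) and *Socs3* (0.88) changed by smaller amounts. The receptor genes *Il6ra* (-0.64) and *Il6st* (0.04) and *Stat3* (0.13) were not called. Of 9 cytokines on the quantitative PCR list, 2 were called, *Il6* and *Il1b*. *Tnf* read -1.13 and -1.3 against -2.22 and -1.51 (adjusted p = 0.336), *Csf2* -3.17 and -2.51 against -5.3 and -4.52 (adjusted p = 0.11; 1 untreated array above background) and *Tgfb1* 0.49 and 0.6 against -0.13 and 0.25 (adjusted p = 0.29), with no call.

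Among the genes of interleukins 17, 20 and 22 and their receptors the calls were of the IL-20 subfamily, which acts on keratinocytes. *Il19* went from -4.9 and -3.22 to 0.97 and 0.79 (log2 fold change 4.95 ± 0.71 SE, adjusted p = 0.0296) and *Il24* from -5.18 and -5.28 to -3.54 and -3.84 (log2 fold change 1.54 ± 0.25 SE, adjusted p = 0.0369), 2 of 15 genes tested. *Il20* read -7.24 and -5.93 after DMBA, above background on 1 of the 2 arrays, and was not above background without it (adjusted p = 0.233). *Il17a* was not above background on any of the 4 arrays, and *Il22* read -4.5 and -4.89 and -4.75 and -4.76. Of 24 TNF and NF-kappaB feedback genes only *Ptgs2*, which encodes cyclooxygenase-2, was called, at -0.34 and -0.78 after DMBA and -2.53 and -2.94 without (log2 fold change 2.17 ± 0.26 SE, adjusted p = 0.0208). The feedback inhibitors *Nfkbia* (-0.36) and *Tnfaip3* (-0.69) were not called.

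Among CC chemokines and receptors, 3 of 24 were called higher and 2 lower (median 0.54). *Ccl3* and *Ccl4*, the macrophage inflammatory proteins, rose by 3.99 and 4.18 (adjusted p = 0.0262 and adjusted p = 0.0206), and their receptor *Ccr1*, above background on 1 of the 2 untreated arrays, by 2.84 (adjusted p = 0.0496). The monocyte chemokines *Ccl2* (2.22), *Ccl7* (2.67) and *Ccl12* (2.41) had positive changes without passing, with adjusted p of 0.0704, 0.063 and 0.062. *Ccl27a*, a keratinocyte chemokine that holds skin-homing T cells, fell from 5.42 and 5.55 to 2.46 and 3.68 (log2 fold change -2.41 ± 0.39 SE, adjusted p = 0.0366). *Ccr4*, a receptor of skin-homing T cells, fell from -3.42 and -3.38 to -6.2 and -5.15 (log2 fold change -2.28 ± 0.4 SE, adjusted p = 0.0452; above background on 1 of the 2 treated arrays), and *Ccr10*, the receptor for Ccl27a, read -4.81 and -3.96 against -2.86 and -2.67 (adjusted p = 0.128).

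Myeloid and macrophage genes were split. Of 35 tested, 10 were called higher and 1 lower (median 0.85), and none of the calls was kept without the deficient-labelled array, while on the 2 untreated arrays 30 of the 35 read higher on the array of deficient label (median difference 0.56). *Saa3*, an acute-phase gene of macrophages and epithelia, showed the second-largest rise of all genes, from -0.73 and -3.0 to 6.32 and 4.78 (log2 fold change 7.41 ± 1.08 SE, adjusted p = 0.0313), with a wide spread in both groups. *Acod1*, the itaconate-making enzyme of activated macrophages, went from -5.15 and -4.91 to 0.22 and -0.46 (log2 fold change 4.91 ± 0.37 SE, adjusted p = 0.011), above background on 1 of the 2 untreated arrays. *Trem3*, an activating myeloid receptor, was at least 8.47-fold higher, *Chil3* (Ym1) changed by 3.33 and *Spp1* (osteopontin) by 2.25. The resident macrophage genes *Csf1r* (-0.06), *Adgre1* (0.18), *Lyz2* (0.02) and *Cd163* (0.37) were not called. *Marco*, a scavenger receptor, fell from 1.75 and 2.35 to 0.59 and 0.29 (log2 fold change -1.61 ± 0.24 SE, adjusted p = 0.0327).

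T cell and Langerhans cell lists contained no called gene. For T cell genes 14 of 16 changes were negative (median -0.58), with *Cd3e* at 0.97 and 1.2 after DMBA and 1.97 and 2.28 without (adjusted p = 0.103) and *Cd4* at 2.2 and 2.19 and 2.04 and 2.3. *Themis*, a signalling protein of the T cell lineage that stood outside the list and was picked after its value was seen, fell from -4.96 and -4.61 to a signal not above background (at least 2.46-fold lower, adjusted p = 0.0245). Among 18 genes of MHC class II and Langerhans cells the median was -0.60, and *Cd207* (langerin) read 2.01 and 2.67 against 3.29 and 3.33 (adjusted p = 0.301). Of 13 mast cell genes 1, *Hdc*, was called, and the mast cell proteases *Cma1* (0.45) and *Tpsb2* (0.51) were not. No interferon-stimulated gene of 27 was called (median 0.09). The untreated arrays differed in these genes, 26 of the 27 reading higher on the array of deficient label, by a median of 1.00, and the part of this difference in the comparison was not tested.

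In the epidermis 2 stress keratins and the basal keratin *Krt14* rose, and no suprabasal keratin was called. Of 18 keratins 3 were called higher and none lower (median 0.08). *Krt6a* read 6.31 and 6.0 after DMBA and 2.59 and 0.9 without (log2 fold change 4.41 ± 0.55 SE, adjusted p = 0.0219), and its partner *Krt16* 8.43 and 8.3 and 5.2 and 3.51 (log2 fold change 4.01 ± 0.52 SE, adjusted p = 0.0245). Both groups of arrays stood clear of each other, but the untreated arrays themselves differed by more than 1. This spread was widest for *Krt6b*, at 8.84 and 8.63 against 4.57 and 0.65, which had the largest keratin change (6.12) and did not pass (adjusted p = 0.0521). *Krt14*, the basal type I keratin, rose by 1.25 (adjusted p = 0.0499), and its partner *Krt5* changed by 0.22 (adjusted p = 0.456). The suprabasal *Krt1* (0.5), *Krt10* (-0.75) and *Krt77* (-2.83, adjusted p = 0.072) and the bulge keratin *Krt15* (-1.6, adjusted p = 0.0748) were not called.

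Cornified envelope genes, which build the protein shell of the stratum corneum, showed wide changes and few calls. Of 48 tested, 1 was called higher and 1 lower (median 0.36), against 3.2% and 1.43% of all genes. *Sprr2k*, a small proline-rich protein, was not above background in untreated skin and read -1.96 and -2.88 after DMBA (at least 9.6-fold, adjusted p = 0.0161). *Lce1m*, a late cornified envelope gene of normal skin, fell from 6.4 and 6.29 to 1.87 and 3.78 (log2 fold change -3.52 ± 0.62 SE, adjusted p = 0.0457). The wound-associated *Lce3a* was 2.67 and 2.02 against 0.07 and -2.25 and *Sprr2d* 5.2 and 5.07 against 2.77 and 0.98. Neither passed (adjusted p = 0.104 and adjusted p = 0.113), the untreated array of deficient label lying below the other for both. The barrier genes *Lor* (-0.84, adjusted p = 0.277) and *Flg2* (-2.44, adjusted p = 0.0756) had negative changes that were not called. Over the whole list, 44 of 48 genes read lower on the untreated array of deficient label than on the wild-type one, by a median of 0.43.

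**Figure D3:**
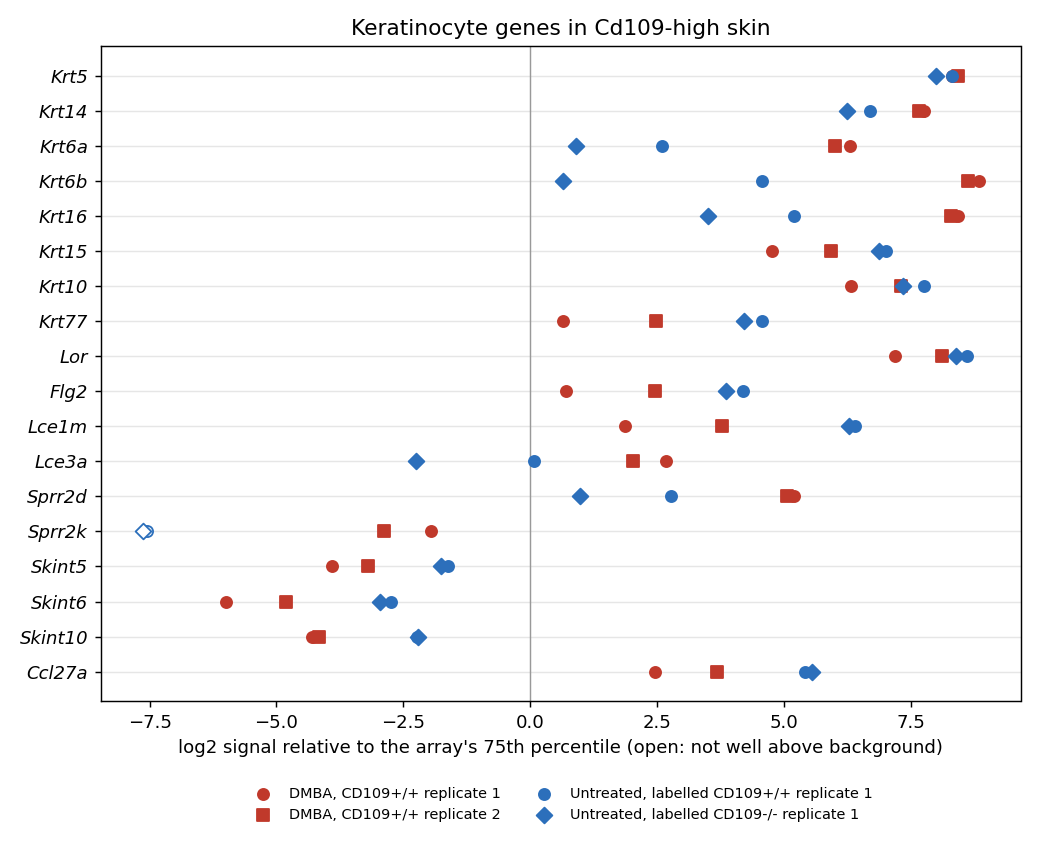
Log2 signal relative to the 75th percentile of each array (horizontal axis) of keratinocyte genes, a marker for each of the 4 arrays, red after DMBA, blue without, and open where the probe was not well above background. Krt6a, Krt6b and Krt16 are high after DMBA and spread on the untreated arrays (Krt6b 4.57 and 0.65), the markers of Krt5 lie close together, and Skint5, Skint6, Skint10 and Ccl27a lie to the left after DMBA.

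Epithelial defence and wound genes were called higher for 5 of 29 and lower for none (median 1.40). The acute-phase genes *Saa1* and *Saa2* went from -0.88 and -1.21 and -3.27 and -3.92 to 4.96 and 3.34 and 1.46 and 0.53 (adjusted p = 0.0261 and adjusted p = 0.0122). *Slpi*, an inhibitor of neutrophil elastase, changed by 3.74 (adjusted p = 0.0201). The beta-defensin *Defb3* (-2.09 and -2.13, adjusted p = 0.0936) and the lectin *Reg3g* (-3.33 and -4.33, adjusted p = 0.0759) were above background after DMBA alone and did not pass. Nor did the wound matrix protein tenascin, *Tnc*, at 1.29 and 0.71 against -2.37 and -5.45, above background on 1 of the 2 untreated arrays (adjusted p = 0.0682). *Wfdc12*, a small protease inhibitor of the same fold as Slpi, went from -3.71 and -3.38 to 2.65 and 2.33 (log2 fold change 6.04 ± 0.25 SE, adjusted p = 0.00441).

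A further 2 families stood out after their values were seen. All 4 tested genes of the gasdermin C group, pore-forming proteins of epithelia, were called higher: *Gsdmc* from -1.01 and -2.52 to 2.2 and 2.48, *Gsdmc3* from -1.75 and -4.21 to 1.54 and 1.73, *Gsdmc4* from -1.3 and -3.47 to 1.95 and 2.17, and *Gsdmcl2* by 2.69. The 4 genes gave log2 changes from 2.69 to 4.62, and of 5 gasdermins outside the group none was called (median 0.43). Skint genes, which encode butyrophilin-like proteins of keratinocytes known for the selection of epidermal gamma-delta T cells, went the other way. *Skint5* fell from -1.62 and -1.75 to -3.9 and -3.2, *Skint6* from -2.74 and -2.95 to -5.99 and -4.81 and *Skint10* from -2.24 and -2.22 to -4.3 and -4.16, while 5 of the 8 tested were not called (median of all 8, -1.91). *Gjb2*, connexin 26, rose by 4.07 (adjusted p = 0.0389), and *Il4ra*, the receptor chain for interleukin-4 and interleukin-13, by 3.35 (adjusted p = 0.00903). The last was still called without the deficient-labelled array (adjusted p = 0.0494). These 2 genes, too, were picked after their values were seen.

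Of 24 matrix metalloproteinases, Adamts proteases and inhibitors, 7 were called higher and none lower (median 0.88). The highest member was *Mmp8* (4.46), described with the neutrophil genes above. The collagenase *Mmp13* went from -3.4 and -4.95 to -0.51 and -1.01 (log2 fold change 3.41 ± 0.49 SE, adjusted p = 0.0301) and the stromelysin *Mmp3* from 2.89 and 2.93 to 5.0 and 4.77 (log2 fold change 1.98 ± 0.26 SE, adjusted p = 0.0256). *Mmp1b* was at least 8.48-fold higher, from a signal not above background. *Adamts4*, an aggrecanase, changed by 3.81 and *Adamts15* by 1.99. The inhibitor *Timp1* rose 13.6-fold, from 2.03 and 0.86 to 5.35 and 5.07 (adjusted p = 0.0161), and kept its call without the deficient-labelled array (adjusted p = 0.034), whereas *Timp2* (-0.32), *Timp3* (-0.71) and *Timp4* (-0.76) were not called. None of 29 collagen and fibroblast genes passed (median 0.07), with *Col1a1* at 7.06 and 6.94 and 7.32 and 7.37. *Col2a1*, the cartilage collagen that was no member of that list, was among the 15 highest genes, at -2.47 and -2.03 after DMBA and not above background without it (at least 10.8-fold, adjusted p = 0.00441).

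Of 47 proliferation genes tested, 31 were called higher and none lower, 45 had a positive change and the median was 1.02, against 539 of 16846 (3.2%) and 0.00 over all genes. *Birc5* (survivin) read 4.54 and 4.44 after DMBA and 2.87 and 2.75 without (log2 fold change 1.68 ± 0.12 SE, adjusted p = 0.0101). *Cdk1*, the kinase that drives mitosis, read 1.45 and 1.49 and 0.13 and -0.13 (log2 fold change 1.47 ± 0.14 SE, adjusted p = 0.0156). *Cdc20*, the activator of the anaphase-promoting complex, read 3.53 and 3.54 and 2.47 and 2.1 (log2 fold change 1.26 ± 0.15 SE, adjusted p = 0.0213). The arrays of each group were close to each other, so that changes near 2-fold were called here. The spindle genes *Bub1*, *Aurkb* and *Tpx2* changed by 1.6, 1.56 and 1.5, and the nucleotide-synthesis genes *Rrm2* and *Tk1* by 1.52 and 1.44. *Ccne1*, the G1/S cyclin, changed by 1.58. The replication helicase genes *Mcm2* (0.61), *Mcm6* (0.52) and *Mcm7* (0.57), *Pcna* (0.49) and *Mki67* (0.6, adjusted p = 0.149) had positive changes that did not pass. No call of the list was kept without the deficient-labelled array or in the 4-array fit. On the untreated arrays 42 of the 47 genes read lower on the one of deficient label, by a median of 0.20. The mean linear signal of the list, in log2, was 2.43 and 2.53 on the treated arrays and 1.65 and 1.53 on the untreated arrays, below the 2.66 to 2.79 of the 4 arrays without *Cd109* signal, which carried the hair keratin signal.

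Promoters of *Cdk1* and *Cdc20* are shown because both were called and the windows of the called proliferation genes often held the same pair of short motifs. Capitals mark the CCAAT box, also where it is read on the opposite strand. They further mark the cell cycle homology region, TTTGAA, which DREAM and MuvB complexes bind. The 250 bases lie on GRCm38.p6 at chr10:69352913-69353162 (*Cdk1*) and chr4:118437344-118437593 (*Cdc20*), on the minus strand and printed in the direction of the gene.
Cdk1: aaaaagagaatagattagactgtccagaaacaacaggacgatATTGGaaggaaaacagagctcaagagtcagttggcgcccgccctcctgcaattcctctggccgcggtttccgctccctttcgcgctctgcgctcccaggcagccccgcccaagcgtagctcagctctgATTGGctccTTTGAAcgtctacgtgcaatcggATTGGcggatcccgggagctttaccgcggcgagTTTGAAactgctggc
Cdc20: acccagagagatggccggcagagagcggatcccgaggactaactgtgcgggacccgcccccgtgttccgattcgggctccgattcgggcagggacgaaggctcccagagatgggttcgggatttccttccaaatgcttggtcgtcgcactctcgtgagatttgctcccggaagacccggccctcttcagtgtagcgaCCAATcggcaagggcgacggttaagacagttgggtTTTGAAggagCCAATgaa
For *Cdk1* the CCAAT letters began 208, 80 and 48 bases before the start and TTTGAA 71 and 15 bases before it. For *Cdc20* they began 53 and 8, and 18, bases before it. Of 26 windows of the 25 proliferation genes called higher and present in the promoter table, 21 (80.8%) held CCAAT and 15 (57.7%) held TTTGAA, on either strand. Over all 32851 windows the shares were 37.4% and 17.9%, in the genes called higher 44.7% and 23.6%, and in the genes called lower 31.2% and 11.7%. The motif of AP-1, TGANTCA, was in 7.81% of all windows, 6.05% of those of genes called higher and 6.07% of those of genes called lower.

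**Figure D4:**
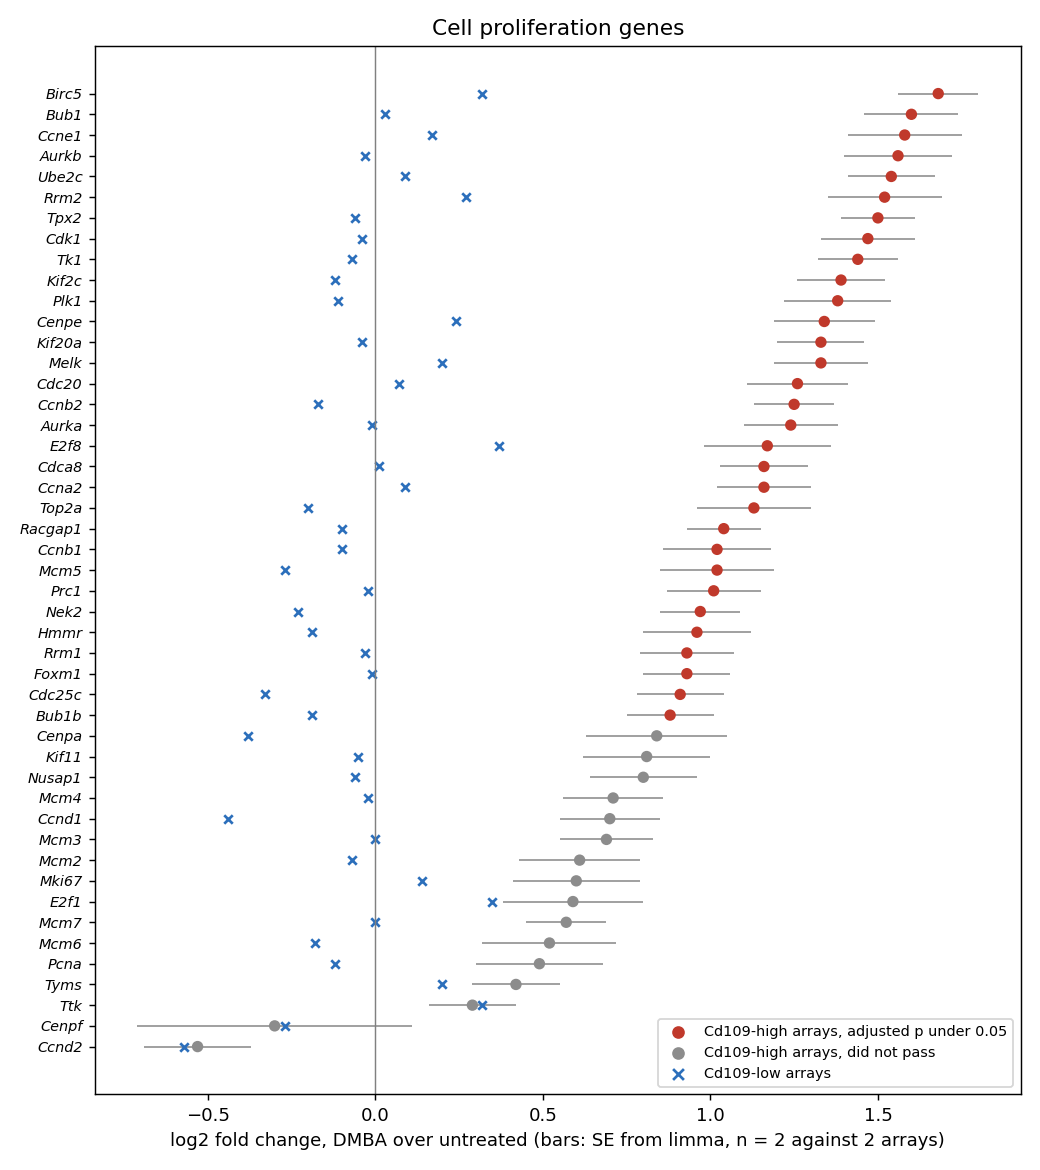
Log2 fold change (DMBA over untreated, horizontal axis) of each of the 47 tested proliferation genes, as a circle with the standard error of limma on the 4 arrays with Cd109 signal, red where the adjusted p was under 0.05, and as a cross on the 4 arrays without Cd109 signal. All but 2 circles lie to the right of 0, around a median of 1.02, and the crosses lie around -0.04.

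Against 3.2% of all genes, DNA repair genes were called higher for 4 of 40 and lower for none (median 0.29). Among these were the exonuclease *Exo1* (1.47) and the helicase *Blm* (0.71), both of them genes that dividing cells express. Genes of nucleotide excision repair, which removes bulky adducts, were not called, *Xpc* at -0.47 (adjusted p = 0.0798), *Ddb2* at -0.33 and *Ercc1* at 0.31 among them. Against the same 3.2%, 6 of the 48 p53 targets were called higher (median 0.26). *Gtse1* (2.08), *Psrc1* (1.6) and *Ckap2* (1.55) are also spindle or cell-cycle genes. *Rprm*, a G2 arrest gene, went from -4.09 and -4.57 to -2.42 and -2.37 (log2 fold change 1.94 ± 0.27 SE, adjusted p = 0.0291), and the death genes *Tnfrsf10b* and *Bax* changed by 1.18 and 0.75. The classical targets *Cdkn1a*, encoding p21, and *Mdm2* were not called. *Cdkn1a* read 2.82 and 3.28 and 2.64 and 2.37 (log2 fold change 0.54 ± 0.22 SE, adjusted p = 0.228), and *Mdm2* 3.59 and 3.69 and 3.45 and 3.33 (log2 fold change 0.25 ± 0.13 SE, adjusted p = 0.313). With the mean of its probes in place of the brightest one, *Cdkn1a* was called, at a log2 change of 1.22 (adjusted p = 0.0344 with limma), so its probes disagree.

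None of 17 genes of the aryl hydrocarbon receptor pathway was called at 24 h (median -0.10). *Cyp1a1*, the enzyme that the receptor induces most, read 2.24 and 2.77 after DMBA and 2.33 and 2.47 without, and *Cyp1b1*, which activates DMBA in skin, 1.62 and 2.05 and 1.58 and 1.76 (adjusted p = 0.894 and adjusted p = 0.624). The groups overlapped for both. Of 60 Nrf2 targets and antioxidant genes 2 were called higher and 2 lower (median 0.20), against 3.2% and 1.43% of all genes. *Akr1b8*, an aldo-keto reductase, rose from 3.27 and 3.09 to 4.99 and 4.69 (log2 fold change 1.66 ± 0.19 SE, adjusted p = 0.0186) and the metallothionein *Mt1* by 1.09 (adjusted p = 0.0315). Catalase, *Cat*, fell by 0.94 (adjusted p = 0.021) on the log2 scale, and the carboxylesterase *Ces1f* fell by 1.57 (adjusted p = 0.0336). With the mean of its probes in place of the brightest one, *Cat* was not called (-0.76, adjusted p = 0.0612 with limma). *Nqo1* (0.72, adjusted p = 0.121), *Hmox1* (0.76, adjusted p = 0.0536), *Nfe2l2* itself (0.37, adjusted p = 0.183) and *Akr1c19*, not above background after DMBA (adjusted p = 0.0988), were not called.

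Among 32 genes of TGF-beta signalling, 1 was called higher and 1 lower (median -0.17), against 3.2% and 1.43% of all genes. The former was *Timp1*, also counted among the metalloproteinases and inhibitors above. The latter was the ligand *Tgfb2*, which fell from 2.6 and 2.84 to 1.26 and 1.06 (log2 fold change -1.56 ± 0.17 SE, adjusted p = 0.018), while the receptors *Tgfbr1* (-0.09) and *Tgfbr2* (0.26) and the target *Smad7* (-0.31) were not called. Of 25 immediate early genes none was called higher at 24 h (7 were positive) and 2 lower, against 3.2% and 1.43% of all genes. The 2 were *Fosb*, from -0.39 and 0.41 to -2.39 and -2.17 (log2 fold change -2.28 ± 0.27 SE, adjusted p = 0.0204), and *Nr4a2*, by -0.9 (adjusted p = 0.0356). None of 23 genes of Ras and the EGF receptor was called, the largest positive value being that of the ligand *Nrg1*, at 0.97 and 1.05 and -2.29 and -2.6 (adjusted p = 0.0613). *Hras*, the oncogene that DMBA mutates in skin, read 3.64 and 3.74 and 3.76 and 3.59, a level and not a mutation. *Shh* was not above background on any of the 4 arrays, *S100a7a* read -4.87 and -6.13 after DMBA, above background on 1 of the 2 arrays, and was not above background without it (adjusted p = 0.642), and *Tpsab1* was not among the named probes.

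Fewer genes fell, 241 against 539 that rose. *Hamp2*, 1 of the hepcidin genes, which encode the iron-regulating hormone or its homologue, gave the largest decrease, from 2.76 and 4.58 to -5.95 and -4.09 (log2 fold change -8.7 ± 0.77 SE, adjusted p = 0.0135), above background on 1 of the 2 treated arrays and with the 2 arrays of each group more than 1 apart. *Serpinb6e*, a serine protease inhibitor, went from 5.88 and 6.29 to 2.34 and 3.13 (log2 fold change -3.35 ± 0.4 SE, adjusted p = 0.0204). *Kcnj16*, an inward-rectifier potassium channel, fell by 3.26 on the log2 scale (adjusted p = 0.00783). *Slc27a2*, a very-long-chain acyl-CoA synthetase, above background on 1 treated array, had a log2 change of -3.08, *Guca2a* (guanylin) of -3.01 and *Etnppl*, a phospholyase of phosphoethanolamine, of -3.07, all of them called. Further genes reached a signal not above background after DMBA, so that only a bound can be given. These were *F830045P16Rik* (at least 18.5-fold lower), the olfactory receptor gene *Olfr131* (12.6), *Rpl10l* (7.94), *Serpina4-ps1* (4.72), *4930563M21Rik* (3.87) and *Cfc1*, a co-receptor of Nodal (2.3). *Fam227b* (-3.97, above background on 1 treated array), *Gm20767* (-3.03) and *Lce1m* completed the 15 lowest.

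The lists of muscle, fat, resting follicle, endothelial, melanocyte and complement genes held no call. Of 28 skeletal muscle genes 26 had a negative change (median -0.78). Their mean linear signal, in log2, was 6.59 and 6.14 on the treated against 7.03 and 6.92 on the untreated arrays. Of 18 adipocyte genes 15 were negative (median -0.47), and of 26 genes of the follicle bulge and resting follicle 23 were (median -0.55). Endothelial genes (median 0.21, 21 tested), melanocyte genes (0.06, 15 tested) and complement genes (0.14, 21 tested) lay near 0. The part of muscle and follicle signal in the changes above was not tested.

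The response was then set against that of the 4 arrays without *Cd109* signal, 2 DMBA-treated and 2 untreated, where 2 probes were called higher and 3 lower. The difference of the 2 responses itself passed for 10 of 37139 probes (0.0269%). *Cdhr1*, a photoreceptor cadherin, rose at least 36.6-fold here, from a signal not above background, and changed by 1.28 in log2 on the arrays without *Cd109* signal (adjusted p = 0.0498 for the difference). *Wfdc12* changed by 6.04 and 0.6 (difference 5.44, adjusted p = 0.0477). *Grm6*, a glutamate receptor, was at least 2.05-fold higher here and not above background in untreated skin or on any of the other 4 arrays (adjusted p = 0.0498 for the difference). *Aadacl4fm1*, an arylacetamide deacetylase-like gene, fell by 2.76 here and changed by 0.29 there (difference -3.05, adjusted p = 0.0477). For the chemokines and most other genes no difference was called: *Cxcl5* changed by 0.27 on the arrays without *Cd109* signal (adjusted p = 0.0585 for the difference), *Krt6a* by 0.44 (adjusted p = 0.103) and *Birc5* by 0.32 (adjusted p = 0.0653). The 10 calls became 67 with quantile normalization and 0 without either DMBA-treated array with *Cd109* signal. A miss of the threshold with 2 arrays a group does not show that the responses were alike. The proliferation genes had a median of -0.04 on those arrays and 1.02 here, a description of the list without a test.

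**Figure D5:**
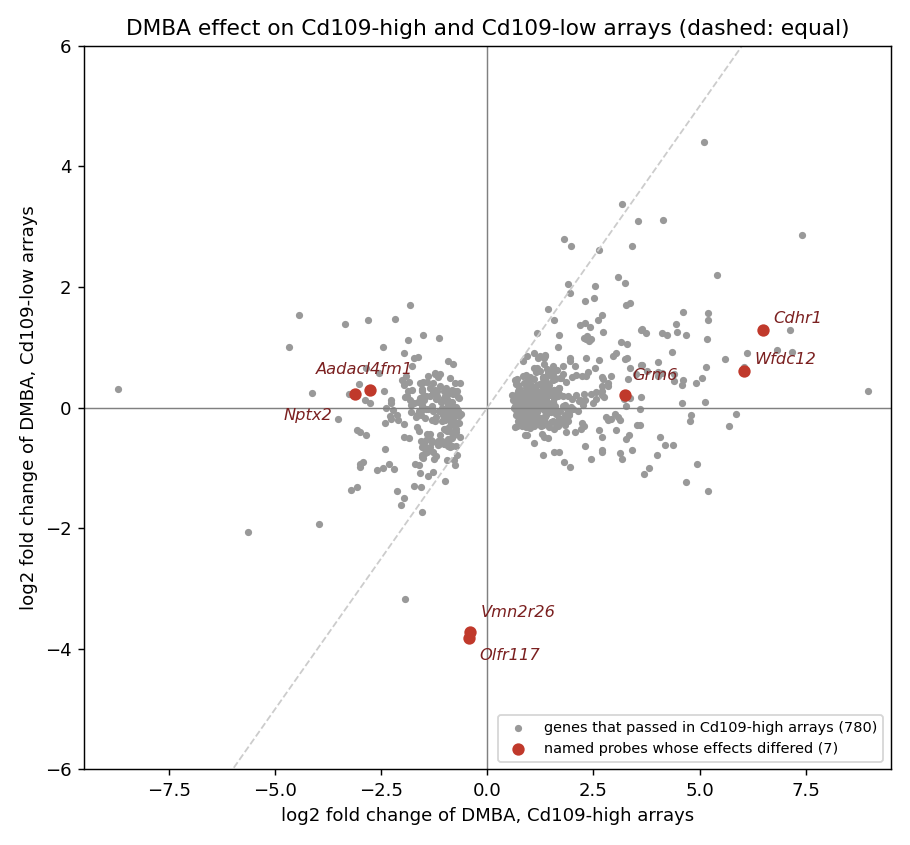
Log2 fold change (DMBA over untreated) on the 4 arrays with Cd109 signal (horizontal axis) against that on the 4 arrays without (vertical axis), a grey point for each of the 780 genes called on the former and a red one for each of 7 named probes whose effects differed. Of the 780, 493 had the same sign on both, and Cdhr1 and Wfdc12 lie far below the dashed line of equal change. Values are as fitted, also for probes not above background in a group.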

How the data were processed

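Total RNA of whole mouse skin was labelled with Cy3 and hybridised to 8 one-colour Agilent mouse arrays. The intensity values are those that the authors deposited as scanner output of Agilent Feature Extraction 11.5.1.1, background-subtracted and detrended within each array. A deposited value table of linear intensities, with its scaling unstated, was used as an alternative. Here each processed signal was put on the log2 scale minus the 75th percentile of its array, spots flagged as outliers were left out, and spots of a probe were averaged (55458 of 55681 probes kept). RefSeq accessions named 27922 of 29684 probes that carry one (94.1%), from the mm9 array design, giving 21095 genes. A probe was tested if, in 1 or more of 4 groups (treatment by *Cd109* level), it was well above background on each array, the test being run over 8 arrays with limma 3.58.1 in R 4.3.3 (lmFit and eBayes, Benjamini-Hochberg adjustment, threshold 0.05).

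A gene was represented by its brightest tested probe. The genes named were *Cd109*, the 15 highest and 15 lowest called genes above background on both arrays of the higher group, up to 6 called members of each of 43 gene lists or the 2 of smallest p, further members where a list is described, 17 genes of interest to the study, and genes whose response differed between the arrays with and without *Cd109* signal; others are said to be chosen after their values were seen, and a few genes that the rule names are not reported here. The arrays, the members and the gene lists were chosen with earlier results of these data known. A probe well above background on no array of a group was called not above background there, and a fold is then a bound: the mean of the brighter group against the mean, over the arrays of the dimmer one, of the higher of its own signal and the lowest signal well above background. On simulated data for DMBA over untreated skin with *Cd109* signal (37139 probes), 14, 35, 36 and 48 of 50 probes changed by 1, 2, 3 and 5 on the log2 scale were recovered, none in the wrong direction. Among the probes left unchanged, 7 were called. Alternatives were quantile and median normalization, normexp background correction with an offset of 50, other filters, fits and groupings, the deposited value table, the methods' t-test, and leaving out each array. Promoter sequences are those of RefSeq on GRCm38.p6; 444 of the genes called higher and 190 of those called lower had one.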

Additional observations from a re-analysis of the deposited data

Results flagged for a closer look

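The response to DMBA differed between the 4 arrays with *Cd109* signal and the 4 without for 10 probes, by limma's test of the difference itself, with adjusted p from 0.0477 to 0.0499. On the arrays with *Cd109* signal 8 of the 10 were called, 4 higher and 4 lower, and 2 were called on the other arrays alone. Where all groups were above background, the difference in log2 change (arrays with minus arrays without) was 5.44 for *Wfdc12*, -3.05 for *Aadacl4fm1* and -2.54 for a probe without a gene name. For the others a group was not above background, and the size of the difference is not known. *Cdhr1* was at least 36.6-fold higher on the arrays with *Cd109* signal (adjusted p = 0.0498 for the difference) and *Grm6* at least 2.05-fold (adjusted p = 0.0498). A second probe of *Nptx2*, a neuronal pentraxin, was at least 1.98-fold lower on them (adjusted p = 0.0477), and another probe without a gene name at least 1.67-fold (adjusted p = 0.0499). The brightest *Nptx2* probe fell by 2.6 on the log2 scale, with an adjusted p of 0.212 for the difference.

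*Vmn2r26* and *Olfr117*, a vomeronasal and an olfactory receptor gene, were above background on the untreated arrays without *Cd109* signal only, against which the DMBA-treated arrays without it were at least 3.03-fold and 3.46-fold lower (adjusted p = 0.0477 and adjusted p = 0.0498 for the difference).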

How the results depend on the processing

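Against 897 probes higher and 423 lower, counts within 1.5 times were obtained with quantile normalization (791 and 301), robust variance (799 and 375), the deposited value table (882 and 422) and probes above background on all 4 arrays (1041 and 600). Median centring gave 988 and 225, or 81.5% higher against 68%, with a shift of 0.12 in the median log2 change. Normexp gave 1507 and 954, a variance trend 1594 and 873, no filter 288 and 94, the 4 arrays alone 52 and 18, and the groups as labelled 54 and 14. The methods' t-test gave 4418 and 3317 unadjusted and 0 and 0 adjusted. The mean of all probes of a gene gave 770 genes higher and 430 lower. With each array left out in turn, counts ran from 0 to 1254 probes higher and from 0 to 749 lower, and a group left with 1 array was assumed to vary like the others. The difference between responses, 10 probes, became 67 with quantile normalization or median centring, 226 with a variance trend, 0 without the filter or with robust variance, and 0 to 3 with an array left out. The cause of these moves was not tested. Of the 203 genes the text names, none reversed a called direction under any of these alternatives. Leaving out an array could not reverse one, because the 2 groups overlapped for no called gene. With the adjusted t-test, which called no probe, all 121 of them that had a call lost it. With the groups as labelled 108 of these 121 lost their call, and in the fit of 4 arrays 102 did. With the mean of a gene's probes 9 of the 203 gained a call: *Ccl7*, *Ccl12*, *Cdkn1a*, *Hmox1*, *Il33*, *Krt6b*, *Mcm7*, *Nrg1* and *Tnc*. In the same setting 2 lost theirs, *Cat* among them. No paired analysis was possible because both untreated arrays with *Cd109* signal carry replicate number 1, so the groups share fewer than 2 numbers. Signal over background limits the bounds given for 68 called genes.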

Other observations

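Of 19 circadian clock genes tested, 2 were called lower and none higher after DMBA, and 3 had a positive change (median -0.62), against 1.43% of all genes called lower. *Hlf*, a PAR-domain output factor of the clock, fell from 1.0 and 1.13 to -0.57 and -0.32 (adjusted p = 0.0161), and *Cry2*, a clock repressor, from 3.98 and 3.94 to 3.2 and 3.06 (adjusted p = 0.0421). *Nr1d1* (Rev-erb alpha) read -0.33 and -0.83 after DMBA and 1.36 and 1.07 without (adjusted p = 0.0775). *Nfil3*, a repressor of the same target sites as Hlf, was the largest positive change of the list, 1.01 (adjusted p = 0.132). The hour of sampling of each array is not given in the sources used here, and its part in these values was not tested.

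Among potassium channel genes 2 of 30 were called lower, the voltage-gated channels of neurons *Kcna1* (-1.55) and *Kcna2* (-1.56), with a median of -0.35, against the same 1.43%. The channel gene *Kcnj16*, called lower above with a larger fall (-3.26), was no member of that list. Of 19 iron-handling genes *Hamp2* alone was called, and the haemoglobin scavenger haptoglobin, *Hp*, read 8.37 and 7.92 after DMBA and 5.28 and 6.57 without (adjusted p = 0.0686). Of 34 apoptosis and cell stress genes *Bax* alone was called, against 3.2% of all genes called higher. Among 28 prostaglandin and leukotriene genes *Ptgs2* and the receptor *Ptger1* (1.05) were called higher, and among 15 polyamine genes *Smox*, spermine oxidase (0.76), was, against the same 3.2%. *Odc1*, the ornithine decarboxylase that tumour promoters induce, read 4.21 and 3.71 after DMBA and 3.5 and 3.03 without (adjusted p = 0.231). Of 4 tested genes of the Mas-related receptor A family, chosen after their values were seen, 2 were called higher, *Mrgpra2a* and *Mrgpra2b*, and the other two were not called. *Mrgpra2a* went from -5.9 and -5.87 to -0.64 and -1.5, and *Mrgpra2b* from -6.44 and -5.9 to -0.48 and -1.48, neither above background in untreated skin (at least 24.4-fold and 26.0-fold).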
